A study of Mus musculus with 6 samples.

Results

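The 7 genes that encode subunits of the NMDA (N-methyl-D-aspartate) receptor, Grin1, Grin2a, Grin2b, Grin2c, Grin2d, Grin3a and Grin3b, were followed across control, HDAC2 knockdown and Sp3 knockdown neurons. They were taken by gene symbol from the authors' deposited tables, which hold 23235 genes, and all 7 were present in both. The mouse cultures held cortical and hippocampal cells of embryonic day 15, kept for 17 days in Neurobasal medium with 2% B27. Every group, the control included, was given 1 uM AraC, which blocks dividing cells, on day 5 and lentivirus with short hairpin RNA on day 12. The groups of 2 libraries each were labelled control, HDAC2 shRNAs and Sp3 shRNAs. HDAC2 is a class I histone deacetylase, Sp3 is a zinc finger factor that binds GC-rich promoter elements, and the series asked whether they act together on a set of genes. The control hairpin, the number of hairpins per target and the culture each library came from are not stated in the labels, so the p-values measure the spread between these libraries, which may be technical. The tables give 1 FPKM value per group (fragments scaled to transcript length and sequencing depth), so levels have no spread of their own, and depth per library is unknown.

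The targeted genes were lower in the groups named for them. In the authors' deposited table Hdac2 had 49.4 FPKM in control against 12.3 in HDAC2 knockdown, and Sp3 had 15.5 FPKM in control against 5.82 in Sp3 knockdown. Each target also differed from control in the other knockdown by the authors' deposited table, which gave 26.7 FPKM for Sp3 in HDAC2 knockdown (q listed as 0) and 38.8 FPKM for Hdac2 in Sp3 knockdown (q = 0.00598). Relative to the median gene these log2 differences, with the standard error implied by the deposited test statistic, were 0.47 ± 0.089 and -0.22 ± 0.11. The Hdac2 difference in Sp3 knockdown did not pass an adjusted p under 0.05 on that scale. The 9 pan-neuronal markers examined were all high enough to be tested. Of the 10 listed microglial markers, C1qa, C1qc and Tmem119 were listed at 0 in control. The others ran from 0.0489 FPKM (Itgam) to 4.50 FPKM (Cd68) there. The cultures also held glial RNA, as the 14 listed astrocyte markers summed to 810 FPKM in control.

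NMDA receptors are glutamate-gated channels that pass calcium when the membrane is depolarised and trigger many forms of synaptic plasticity. Each receptor joins the obligatory GluN1 subunit, encoded by Grin1, which binds glycine or D-serine, with GluN2 subunits, encoded by Grin2a to Grin2d, which bind glutamate and set the channel's kinetics. GluN2B prevails in the embryonic forebrain and GluN2A joins it after birth, GluN2D is found mainly in interneurons of the mature forebrain, and GluN2C is best known from cerebellar granule cells and is also found in astrocytes. GluN3 subunits, encoded by Grin3a and Grin3b, bind glycine and lower the calcium permeability of the receptor.

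Sp3 was one of the proteins depleted, and it binds GC boxes, so the promoter windows of the subunits that passed a test in either knockdown are shown where the RefSeq table (build GRCm38.p6) held one. That table held 4 of the 7 genes, namely Grin1, Grin2c, Grin2d and Grin3b. Each window runs from 250 bases before the annotated start to 50 bases after it, on the strand of the gene. Capitals mark the GC box, searched as GGGCGG on the gene's strand and as CCGCCC for the opposite strand. All 3 windows lie on the minus strand, at chr2:25319138-25319437 for Grin1, chr11:115267194-115267493 for Grin2c and chr7:45866632-45866931 for Grin2d.
Grin1: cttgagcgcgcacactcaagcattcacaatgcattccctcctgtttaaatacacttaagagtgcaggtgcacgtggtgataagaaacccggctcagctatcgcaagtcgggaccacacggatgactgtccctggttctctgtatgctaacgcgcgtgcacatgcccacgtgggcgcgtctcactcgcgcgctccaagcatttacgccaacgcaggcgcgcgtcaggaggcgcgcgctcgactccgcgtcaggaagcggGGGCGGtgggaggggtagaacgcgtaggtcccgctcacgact
Grin2c: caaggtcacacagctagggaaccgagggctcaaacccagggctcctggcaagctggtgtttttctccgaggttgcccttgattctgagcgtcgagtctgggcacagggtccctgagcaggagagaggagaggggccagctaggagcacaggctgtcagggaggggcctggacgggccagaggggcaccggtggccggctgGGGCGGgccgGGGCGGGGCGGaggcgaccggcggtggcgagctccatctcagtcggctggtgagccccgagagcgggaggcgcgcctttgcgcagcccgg
Grin2d: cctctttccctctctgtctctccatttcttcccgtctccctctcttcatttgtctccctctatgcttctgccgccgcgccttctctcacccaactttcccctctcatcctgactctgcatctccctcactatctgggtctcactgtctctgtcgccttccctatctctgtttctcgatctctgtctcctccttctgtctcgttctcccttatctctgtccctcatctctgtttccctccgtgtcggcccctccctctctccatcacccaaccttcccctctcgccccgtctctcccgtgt
The Grin1 window held 1 GC box, at bases 259 to 264 counted from its 5′ end, with the start site at base 251. In the Grin2c window there were 3, at bases 201 to 206, 211 to 216 and 216 to 221, the last 2 of which share a base. The Grin2d and Grin3b windows held none on either strand. Of all 32851 promoter windows in the table, 35.7% held at least 1 GC box and 19.5% held 2 or more. The GC content was 60.7% for Grin1, 70.0% for Grin2c, 56.0% for Grin2d and 48.3% for Grin3b, against a median of 52.7% over all windows. These are matches of letters in 1 annotated window per gene, and binding of Sp3 or HDAC2 was not measured.

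In control neurons the subunits spanned from 153 FPKM for Grin1 to 0.461 FPKM for Grin3b in the authors' deposited table. Grin2b stood at 90.2 FPKM and Grin2a at 42.6 FPKM in the authors' deposited table. These 3 genes, the subunits of the common forebrain receptor, all lay in the upper part of the expressed genes, with 97.4%, 95.2% and 87.2% of the 13931 genes that reach 1 FPKM in any group below Grin1, Grin2b and Grin2a. Grin3a followed at 10.1 FPKM, near the middle of the expressed genes. Grin2d at 1.58 FPKM and Grin2c at 1.07 FPKM came next in the authors' deposited table, both among the lowest expressed genes. The order Grin1, Grin2b, Grin2a, Grin3a, Grin2d, Grin2c and Grin3b was the same in all 3 groups.

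An upper bound on the error of each gap in that order was set from the error implied by the authors' test, since the error of a ratio of groups cannot be below that of either group alone. In control the gap between Grin1 and Grin2b was 0.76 on the log2 scale with an error of at most 0.41, and that between Grin2d and Grin2c was 0.56 with an error of at most 0.40. Neither of these neighbours differed by more than the 95% interval. The other 4 gaps in control did, for example Grin2b over Grin2a by 1.08 with an error of at most 0.42. In HDAC2 knockdown the gap of Grin2b over Grin2a was 1.28, larger than in control, but its error bound of 0.71 left it within that interval. The bound for control takes the smaller error of the 2 comparisons, so this is no sign of a lost separation. In Sp3 knockdown Grin2d lay 1.98 above Grin2c with an error of at most 0.43, beyond the interval, whereas Grin2c and Grin3b were 0.56 apart with an error of at most 0.68.

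**Figure D1:**
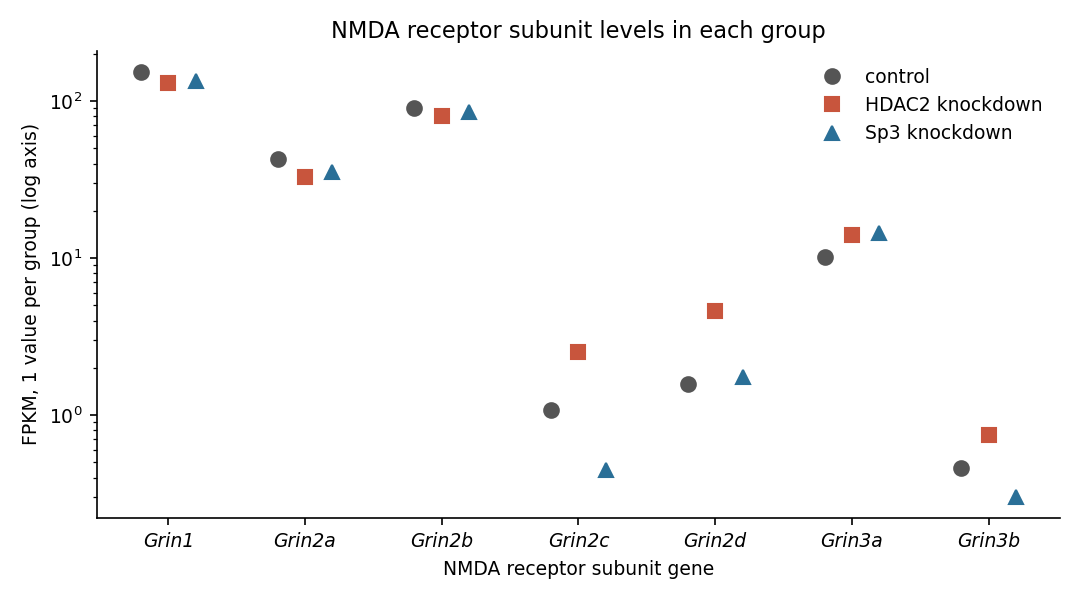
FPKM of the 7 NMDA receptor subunit genes (log axis) in control (circles), HDAC2 knockdown (squares) and Sp3 knockdown (triangles), 1 value per group from the authors' deposited tables. Grin1, Grin2b and Grin2a lie close together across groups, while Grin2c runs from 0.445 FPKM in Sp3 knockdown to 2.53 in HDAC2 knockdown.

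By summed FPKM, the family was dominated by the same 3 genes in every group. Grin1 made up 51.2% of the summed FPKM of the 7 genes in control, 49.4% in HDAC2 knockdown and 49.3% in Sp3 knockdown. Grin2b made up 30.2%, 30.0% and 31.4% in the same order, and Grin2a made up 14.2%, 12.4% and 13.0%. Shares are taken within a group, so they do not depend on how the groups were scaled against each other. The minor subunits Grin2c and Grin2d together with Grin3a held the clearest moves of share.

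Grin2d went from 0.529% of the summed FPKM in control to 1.74% in HDAC2 knockdown and 0.649% in Sp3 knockdown. Its log2 change of share was 1.72 ± 0.37 in HDAC2 and 0.29 ± 0.28 in Sp3 knockdown (± implied standard error). The share of Grin2c was 0.358% in control, 0.954% in HDAC2 knockdown and 0.165% in Sp3 knockdown. That is a log2 change of share of 1.41 ± 0.38 and -1.12 ± 0.37. Grin3a held 3.39% in control, 5.25% in HDAC2 knockdown and 5.38% in Sp3 knockdown, with log2 changes of share of 0.63 ± 0.31 and 0.66 ± 0.17. The shares of Grin2c and Grin2d stayed under 2% of the family in each group, so these moves concern a small part of the receptor mRNA.

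**Figure D2:**
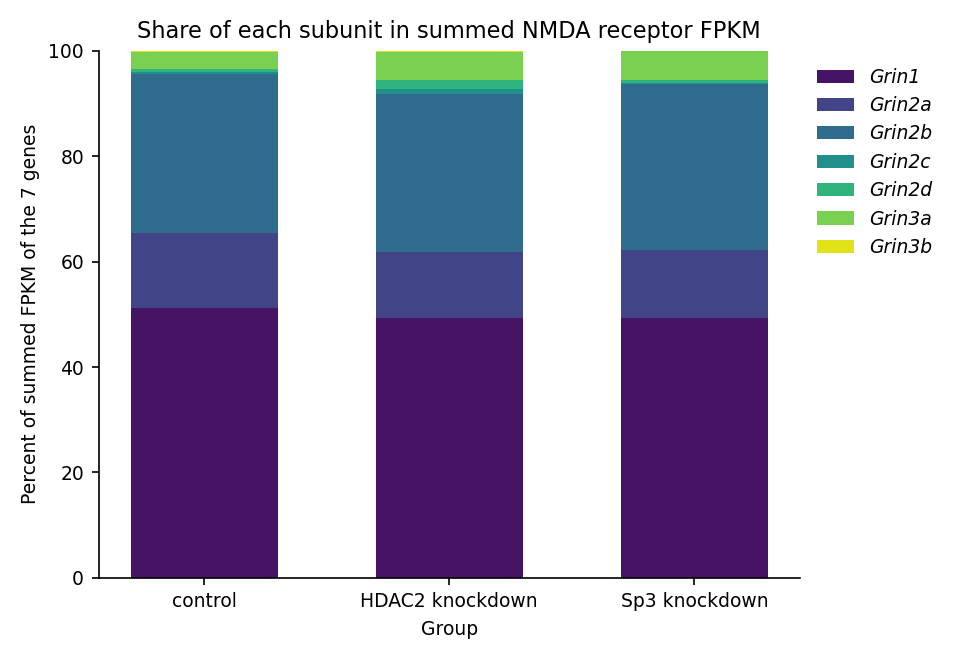
Stacked shares of the 7 subunit genes in their summed FPKM (percent, from 0 to 100) in each group. Grin1, Grin2b and Grin2a fill more than 90% of each bar, and the share of Grin3a widens from 3.39% in control to 5.25% and 5.38% in the knockdowns.

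The balance of Grin2a to Grin2b, which rises as forebrain synapses mature, was 0.472 in control, 0.413 in HDAC2 knockdown and 0.413 in Sp3 knockdown. The log2 change of this ratio was -0.19 ± 0.71 in HDAC2 knockdown, with a 95% interval of -1.58 to 1.20. In Sp3 knockdown it was -0.19 ± 0.42, with an interval of -1.02 to 0.64. A change of either sign is therefore within the error, and both values share the control group. Grin1 stood at 1.13 times the summed FPKM of the 4 Grin2 genes in control, 1.09 times in HDAC2 knockdown and 1.09 times in Sp3 knockdown.

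In HDAC2 knockdown the minor GluN2 subunits rose and no subunit was called lower. In the authors' deposited table Grin2d rose from 1.58 to 4.62 FPKM and Grin2c from 1.07 to 2.53 FPKM, at 2.92 and 2.36 times the control level. The same table of the authors gave q = 7.29e-06 for Grin2d and q = 0.000718 for Grin2c. Of the 7 members 6 were tested, Grin3b being too low for the authors' test, and 2 were called higher and 0 lower at q under 0.05. Among all tested genes 28.2% were called, 24.6% higher and 3.6% lower, so the count of subunits is close to the background and is no result about the family.

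The whole HDAC2 distribution was shifted upward by a median of 0.32 on the log2 scale over genes of at least 1 FPKM, so values were also taken relative to that median gene. With p-values computed from the authors' errors, Grin2d was at 1.23 ± 0.31 on that scale (adjusted p = 0.000868) and Grin2c at 0.93 ± 0.32 (adjusted p = 0.0251), both still higher. Grin1 had 153 FPKM in control against 131 in the knockdown, q = 0.204 in the authors' deposited table. Relative to the median gene it was lower, at -0.54 ± 0.14 by the authors' errors (adjusted p = 0.000991), and relative to the median pan-neuronal marker the value was -0.38 (adjusted p = 0.0317). The latter p-value treats the marker median as exact, although the markers ran from -1.06 (Elavl4) to 0.35 (Nefl) relative to the median gene. Centred on the median gene, 2 members were higher and 1 lower of 6, against 10.2% and 7.59% of all tested genes and 17.8% in either direction.

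The remaining tested subunits were not called in HDAC2 knockdown on either scale. Grin2a measured 42.6 FPKM in control and 32.9 in the knockdown, q = 0.356 in the authors' deposited table, a ratio of 0.774 with a 95% interval of 0.514 to 1.17. Grin3a measured 10.1 and 14.0 FPKM, q = 0.129 in the authors' deposited table, a ratio of 1.38 with an interval of 0.992 to 1.91. Grin2b measured 90.2 and 79.8 FPKM, q = 0.858 in the authors' deposited table, and its ratio of 0.884 had an interval of 0.368 to 2.12. The untested Grin3b was listed at 0.461 and 0.748 FPKM in the authors' deposited table.

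Grin2b was measured far less precisely than its level would imply. Its implied standard error was 0.64 in HDAC2 and 0.40 in Sp3 knockdown, while the median over genes within 2-fold of its control level was 0.28 and 0.12. Of those genes, 96.7% had a smaller error in the HDAC2 comparison and 97.1% in the Sp3 comparison. Grin1 stood at the other end, with errors of 0.14 and 0.066, and 3.82% and 4.90% of genes of similar level had a smaller one. A doubling or halving of Grin2b could not have been told from no change in HDAC2 knockdown.

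In Sp3 knockdown Grin3a rose and Grin2c fell, and Grin1 was slightly lower in the authors' deposited table. Grin3a, the GluN3 subunit that lowers calcium permeability, rose from 10.1 to 14.5 FPKM with q = 2.70e-05 in the authors' deposited table, 1.43 times the control level. Grin2c fell from 1.07 to 0.445 FPKM with q = 0.00174 in the authors' deposited table. Grin1 fell from 153 to 133 FPKM with q = 0.0112 in the authors' deposited table, a ratio of 0.871 with an interval of 0.796 to 0.953. In all, 1 of 6 tested members was called higher and 2 lower, against 13.2% and 26.1% of all tested genes and 39.3% in either direction.

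The Sp3 distribution was shifted by a median of -0.13 on the log2 scale. Relative to the median gene, by the authors' errors, Grin3a was at 0.65 ± 0.11 (adjusted p = 3.73e-08) and Grin2c at -1.13 ± 0.35 (adjusted p = 0.00443), so both kept their calls. Grin1 did not keep its call, at -0.067 ± 0.066 by the authors' errors (adjusted p = 0.460). Centred in this way 1 member was higher and 1 lower of 6, against 20.2% and 17.6% of all tested genes and 37.8% in either direction. Relative to the pan-neuronal markers, whose median log2 fold change in the authors' table was 0.43, Grin3a lost its call (0.090, adjusted p = 0.459), while Grin1 (-0.63, adjusted p = 3.70e-20) and Grin2a (-0.71, adjusted p = 8.57e-07) were lower. These p-values treat the marker median as exact, although the markers ran from -0.21 (Rbfox3) to 1.16 (Nefl) relative to the median gene. The marker median lay 0.56 above the median gene, so a typical gene is also lower on this scale. The calls of Grin1, Grin2a and Grin3a in this comparison thus depend on the scale, and that of Grin2c held on each scale tried.

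Grin2a, Grin2b and Grin2d did not pass the authors' test in Sp3 knockdown. Grin2a measured 42.6 FPKM in control and 35.1 in the knockdown, q = 0.105 in the authors' deposited table, a ratio of 0.824 with an interval of 0.684 to 0.993 before adjustment. Grin2b measured 90.2 and 84.9 FPKM, q = 0.889 in the authors' deposited table, with an interval of the ratio from 0.546 to 1.62. For Grin2d, at 1.58 and 1.75 FPKM in the authors' deposited table with q = 0.682, the interval ran from 0.789 to 1.56. The untested Grin3b was listed at 0.461 and 0.303 FPKM in the authors' deposited table.

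**Figure D3:**
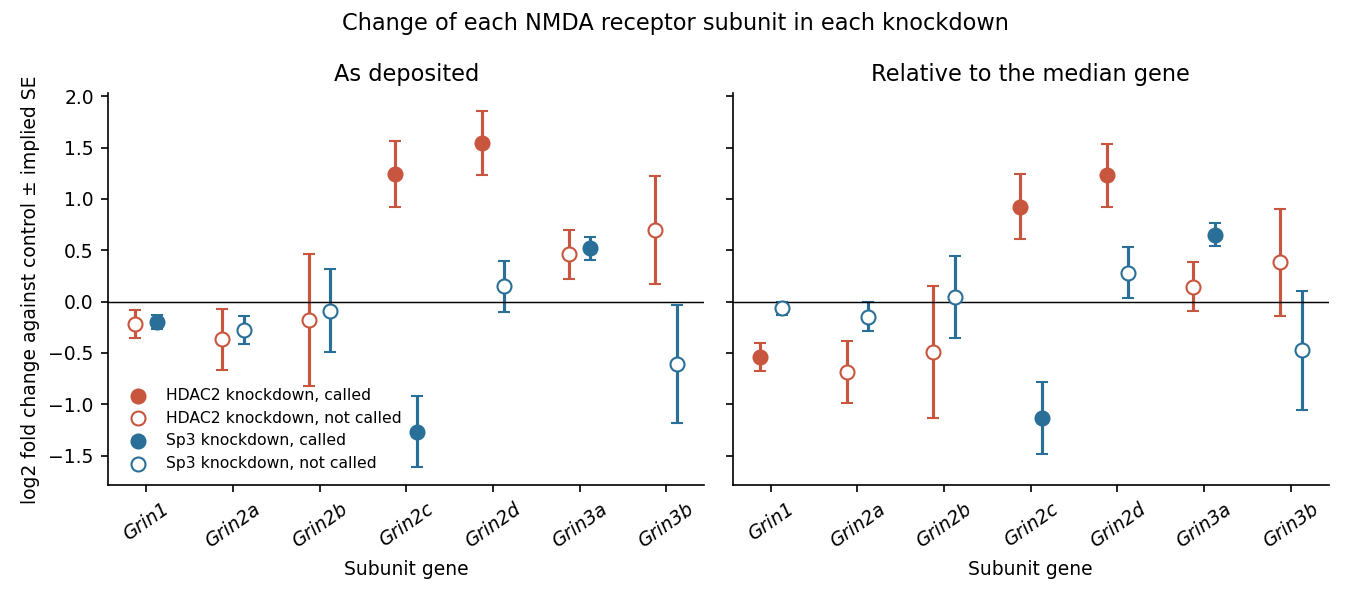
log2 fold change of each subunit against control (vertical axis) with its implied standard error (bars) in HDAC2 (red) and Sp3 (blue) knockdown, as deposited (left) and relative to the median gene (right). Filled points are called and open points are not, and Grin3b was not tested. Grin2c lies at 1.24 in HDAC2 and -1.27 in Sp3 knockdown as deposited, on opposite sides of 0 in both panels.

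Grin2c was the subunit that separated the knockdowns most clearly. The difference of its log2 fold changes, HDAC2 minus Sp3 relative to the median genes, was 2.06 ± 0.47 (adjusted p = 0.000294), from levels of 2.53 and 0.445 FPKM in the authors' deposited tables. Both comparisons use the same control libraries, which makes the stated error of such a difference too large rather than too small. Grin1 also differed, by -0.47 ± 0.15 (adjusted p = 0.0173), although its FPKM in the authors' deposited tables was nearly equal in both knockdowns (131 and 133) and the difference without centring was -0.024 (adjusted p = 0.932). Of the 6 tested members 1 was higher in HDAC2 and 1 in Sp3 knockdown, against 7.86% and 6.87% of the 13277 genes tested in both tables and 14.7% in either direction. For Grin2d the difference by the authors' errors was 0.95 ± 0.40 (adjusted p = 0.0937), and without centring it was 1.40 ± 0.40 (adjusted p = 0.00305). Grin2a (-0.54 ± 0.33), Grin2b (-0.54 ± 0.76) and Grin3a (-0.51 ± 0.26) did not pass this test.

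The ratio of Grin2c to Grin2d, both low GluN2 subunits, does not depend on scaling between groups. It was 0.677 in control, 0.549 in HDAC2 knockdown and 0.254 in Sp3 knockdown. The log2 change of this ratio was -0.30 ± 0.44 in HDAC2 and -1.41 ± 0.43 in Sp3 knockdown, with 95% intervals of -1.17 to 0.57 and -2.25 to -0.58 that overlap, and the difference between the knockdowns was not tested. Against Grin1, Grin2c changed by 1.46 ± 0.35 in HDAC2 and -1.07 ± 0.35 in Sp3 knockdown, and Grin2d by 1.77 ± 0.34 and 0.35 ± 0.26. Grin3a changed against Grin1 by 0.68 ± 0.28 in HDAC2 and 0.72 ± 0.13 in Sp3 knockdown, both values sharing the control group.

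The loci in mm9, as the authors' files give them, were chromosome 2, 25145430 to 25174683 for Grin1, chromosome 16, 9577802 to 9992626 for Grin2a and chromosome 6, 135679822 to 136123529 for Grin2b. Grin2c lay on chromosome 11, 115110482 to 115128557, Grin2d on chromosome 7, 53087852 to 53122051, Grin3a on chromosome 4, 49678097 to 49857953, and Grin3b on chromosome 10, 79433468 to 79447075. Some of these intervals are listed for neighbouring genes too, so they are wider units and not the exact bounds of the gene. The Grin1 interval is also that of Lrrc26 (3.12 FPKM in control) and of E130003G02Rik (4.53 FPKM), which the RefSeq table names Grin1os, the antisense partner of Grin1. The Grin3a interval is shared with Ppp3r2 (0.188 FPKM in control) and that of Grin3b with ORF61 (54.9 FPKM in control). Whether strand was used in counting is not given in the sources used here, so fragments of overlapping genes may not be separable. For Grin3b, listed at 0.461 FPKM beside a partner at 54.9 FPKM, the values are uncertain.

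Most glial markers that were called moved in the direction of Grin2c in both knockdowns. For Grin2d this held in HDAC2 knockdown only, and Grin3a rose in Sp3 knockdown, where most called glial markers were lower. A culture measured whole cannot tell a change in the number of cells of a type from a change of RNA per cell. In HDAC2 knockdown 8 of 12 tested astrocyte markers and 13 of 16 tested oligodendrocyte lineage markers were called higher and none lower by the authors' deposited table, in the same libraries in which Grin2c and Grin2d rose. After centring 6 and 12 of them were higher and none lower, with medians of 1.38 and 1.59 relative to the median gene. Of all tested genes in HDAC2 knockdown, 24.6% were called higher and 3.6% lower as deposited, and 10.2% and 7.59% after centring. The summed FPKM of the 14 listed astrocyte markers went from 810 in control to 2224 in HDAC2 knockdown, and that of the 17 oligodendrocyte lineage markers from 230 to 477. Large terms of the astrocyte sum were not called in the authors' deposited table, such as Slc1a3 (173 to 721 FPKM, q = 0.282) and Slc1a2 (176 to 290 FPKM, q = 0.590). The sums carry no error, so their size is a description only. In Sp3 knockdown, where Grin2c fell, 7 of 13 tested astrocyte markers and 9 of 11 tested oligodendrocyte lineage markers were called lower and none higher by the authors' deposited table. After centring 3 of the astrocyte markers were higher and 7 lower, and the summed FPKM was 659 for the astrocyte and 133 for the oligodendrocyte lineage list. Of all tested genes in Sp3 knockdown, 13.2% were called higher and 26.1% lower as deposited, and 20.2% and 17.6% after centring. None of these glial markers was listed at 0 in any group. Their part in the values of Grin2c and Grin2d was not tested.

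Markers of interneurons, in which GluN2D is found, are set beside Grin2d here. The background for the counts is again 24.6% of all tested genes higher and 3.6% lower in HDAC2 knockdown as deposited. In Sp3 knockdown it is 13.2% and 26.1%, and several of the counts are near these shares. Of 9 tested markers of GABAergic neurons, the authors' deposited table called 1 higher and 0 lower in HDAC2 knockdown, or 1 and 2 after centring, with a median of -0.29 relative to the median gene. In Sp3 knockdown, where Grin2d was not called, 7 of 10 were called higher and 1 lower, with a median of 0.63. The summed FPKM of the 13 listed GABAergic markers was 195 in control, 224 in HDAC2 knockdown and 296 in Sp3 knockdown. By the authors' deposited table, pan-neuronal markers gave 0 higher and 1 lower of 9 in HDAC2 and 5 higher and 1 lower of 9 in Sp3 knockdown, and their summed FPKM was 968, 967 and 1298. Markers of glutamatergic neurons gave 2 higher and 1 lower of 11 in HDAC2 and 4 higher and 3 lower of 11 in Sp3 knockdown. Of microglial markers 2 were tested in each comparison with none called, and of 4 tested endothelial, pericyte and fibroblast markers 3 were called higher in HDAC2 knockdown, and 1 higher and 1 lower in Sp3 knockdown.

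**Figure D4:**
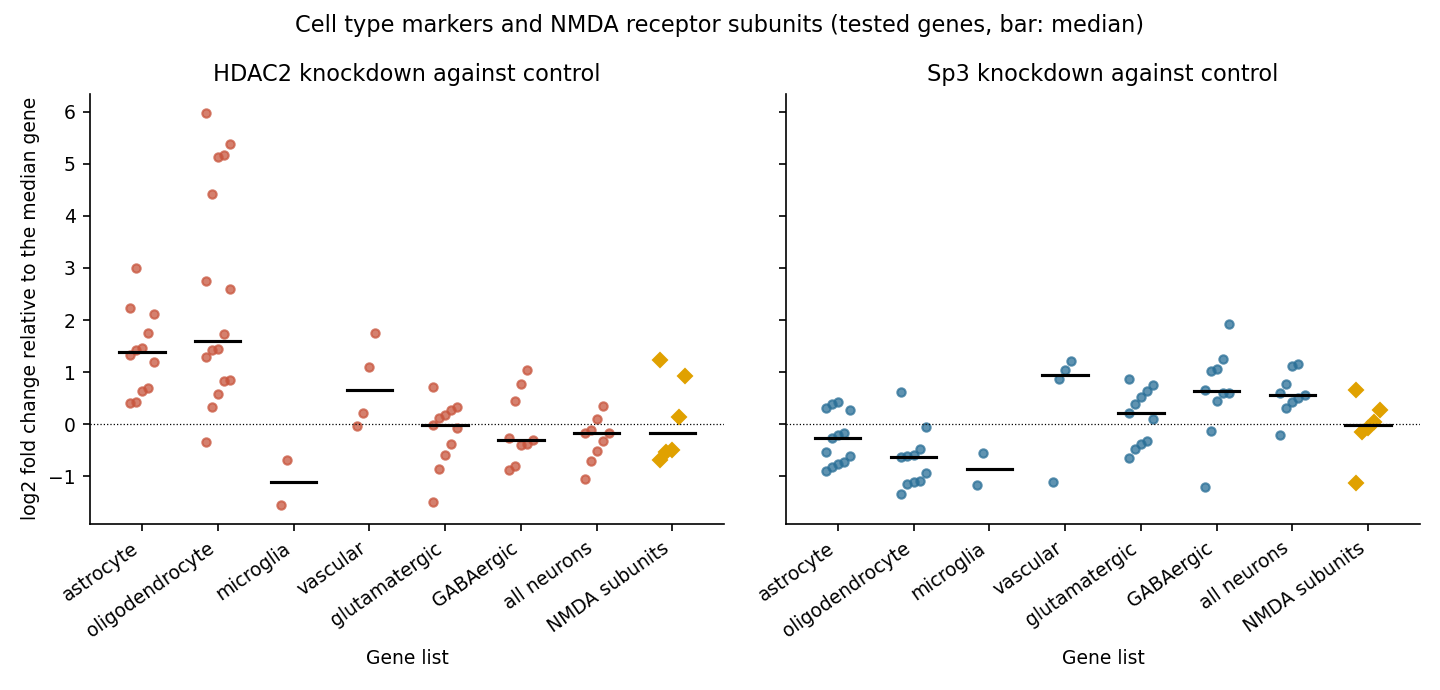
Centred log2 fold change (median gene at 0) of tested cell type markers (circles) and NMDA receptor subunits (diamonds), with the median of each list as a bar, in HDAC2 (left) and Sp3 (right) knockdown. Astrocyte and oligodendrocyte medians lie at 1.38 and 1.59 on the left and at -0.27 and -0.64 on the right, while the subunits have medians of -0.17 and -0.011.

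The genes that act around the receptor were read from lists of scaffolds, trafficking proteins, kinases and phosphatases, calcium and Ras signalling and co-agonist supply. Counts are those called in the authors' deposited table, values are centred log2 fold changes ± implied standard error, and the median over all tested genes was -0.0044 in HDAC2 and -0.0017 in Sp3 knockdown on that scale. Of all tested genes, 24.6% were called higher and 3.6% lower in HDAC2 knockdown, and 13.2% and 26.1% in Sp3 knockdown. After centring these shares were 10.2% and 7.59%, and 20.2% and 17.6%. They are the background for every list below, AMPA and kainate subunits included, and a count near them is no result about a list. Of the scaffold genes, 6 of 20 tested were higher and 2 lower in HDAC2 knockdown, but 0 were higher and 6 lower after centring, with a centred median of 0.12. Shank3, which links the receptor complex to the cytoskeleton, fell (-1.34 ± 0.29), as did Dlgap2, a partner of PSD-95 (-0.60 ± 0.10). Dlgap1 (0.38 ± 0.17), Nos1 (0.54 ± 0.24), the neuronal nitric oxide synthase tethered to the receptor, and the receptor kinase gene Erbb4 (0.51 ± 0.25) were called higher as deposited and not after centring. In Sp3 knockdown 4 of 21 scaffold genes were higher and 8 lower, or 6 and 6 after centring, with a centred median of -0.0066. Nos1 (1.17 ± 0.11), Dlg2, a PSD-95 family member (0.77 ± 0.17), and Iqsec2 (0.49 ± 0.087) rose, and Homer2 (-0.61 ± 0.063), Shank2 (-0.46 ± 0.086) and Dlgap2 (-0.36 ± 0.081) fell.

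By the authors' deposited table, trafficking genes numbered 4 higher and 0 lower of 14 tested in HDAC2 knockdown, and 4 higher and 4 lower of 14 in Sp3 knockdown. After centring these were 1 higher and 0 lower in HDAC2 and 4 higher and 2 lower in Sp3 knockdown. Pacsin1, which acts in endocytosis and has been tied to removal of GluN3A from the surface, rose in both, at 0.59 ± 0.19 and 0.89 ± 0.076. In Sp3 knockdown Lin7a (0.85 ± 0.092) and the retromer gene Vps35 (0.90 ± 0.13) rose, and Rab5a, a GTPase of early endosomes (-0.48 ± 0.11), and Lin7c (-0.43 ± 0.11) fell. Kif17, the kinesin that carries GluN2B, was called lower in Sp3 knockdown by the authors' deposited table, from 2.36 to 1.52 FPKM, but not after centring (-0.50 ± 0.25, adjusted p = 0.0950).

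Among kinases and phosphatases that act on or below the receptor, 4 of 21 tested were higher and 0 lower in HDAC2 knockdown by the authors' deposited table, and 1 was higher and 1 lower after centring. Src, a tyrosine kinase that phosphorylates GluN2 subunits, rose to 37.6 FPKM from 19.7 in control by the authors' deposited table (0.61 ± 0.070 after centring). In Sp3 knockdown 5 of 23 were higher and 5 lower, and after centring 7 were higher and 0 lower. Ptpn5, the phosphatase STEP that acts on GluN2B (0.67 ± 0.077), Gsk3b (0.85 ± 0.12) and Dapk1, a kinase that binds GluN2B (0.37 ± 0.058), rose. Camk2d, Ptk2b and Camk2g were called lower there as deposited, with centred values of -0.080 ± 0.034, -0.17 ± 0.077 and -0.053 ± 0.059 that did not pass.

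Calcium and Ras signalling genes counted 7 higher and 0 lower of 15 in HDAC2 knockdown and 7 higher and 1 lower of 15 in Sp3 knockdown by the authors' deposited table, or 1 and 0 and then 9 and 1 after centring. The kinase gene Mapk3 rose in HDAC2 knockdown (0.87 ± 0.26). In Sp3 knockdown Tiam1 (0.53 ± 0.063) and Rasgrf1, an exchange factor that couples the receptor to Ras (0.57 ± 0.094), rose, and Rasal1 fell (-0.43 ± 0.11).

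Genes of glycine and D-serine supply, the co-agonists of GluN1 and GluN3, counted 3 higher and 0 lower of 10 in HDAC2 knockdown and 2 higher and 6 lower of 11 in Sp3 knockdown by the authors' deposited table, or 2 and 0 and then 2 and 4 after centring. In HDAC2 knockdown Gldc, which breaks down glycine and marks astrocytes (1.43 ± 0.26), and the exchanger gene Slc7a10 (1.23 ± 0.32) rose. Srr, which makes D-serine, rose in Sp3 knockdown (0.46 ± 0.067), as did Slc7a10 (0.77 ± 0.26). The serine synthesis gene Phgdh (-0.81 ± 0.11) and Shmt2 (-0.45 ± 0.11) fell there. Several of these genes are astrocytic, and the astrocyte markers given above moved in the same libraries; their part was not tested. Of AMPA and kainate receptor subunits, 4 of 8 tested were higher and 0 lower in HDAC2 knockdown and 6 of 9 higher and 0 lower in Sp3 knockdown by the authors' deposited table. After centring 1 was higher in HDAC2 and 6 in Sp3 knockdown, with 0 lower in either and medians of 0.043 and 0.57.

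**Figure D5:**
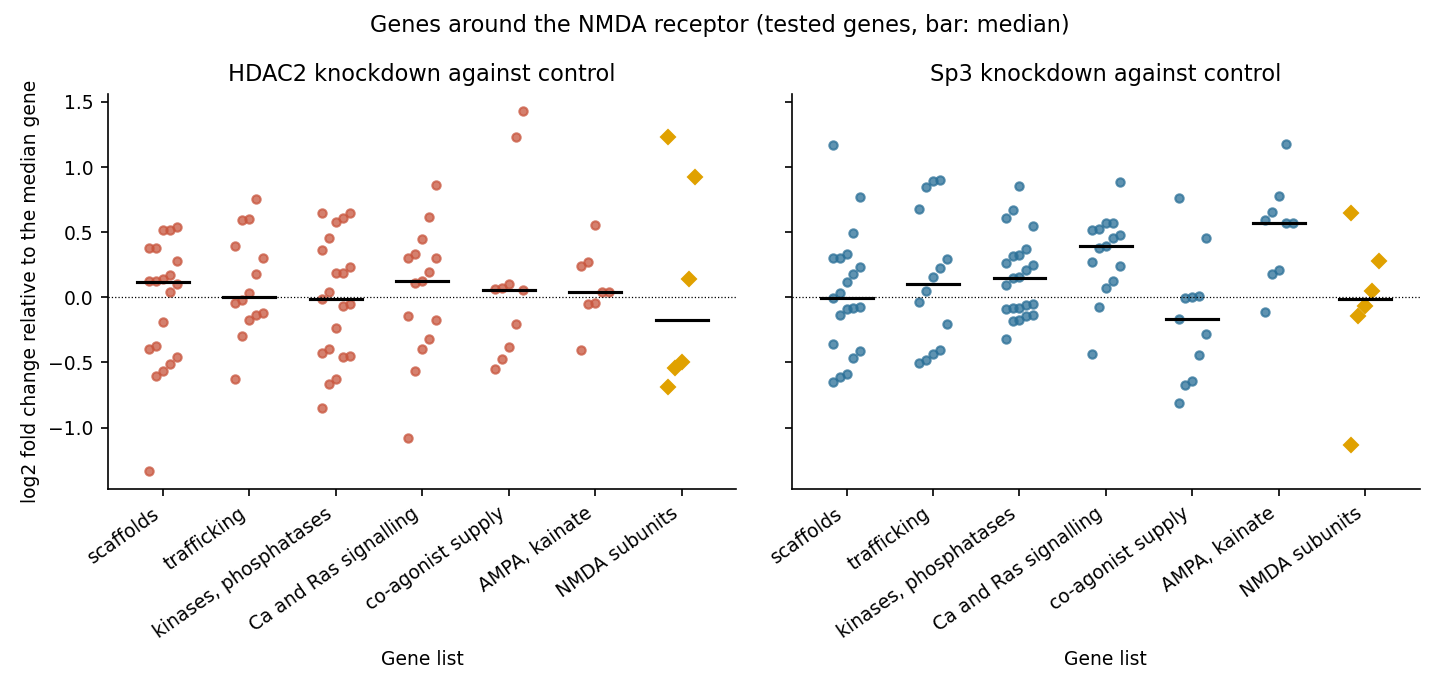
Centred log2 fold change (median gene at 0) of tested genes around the receptor (circles), by list, and of the NMDA receptor subunits (diamonds), with medians as bars, in HDAC2 (left) and Sp3 (right) knockdown. The AMPA and kainate median lies at 0.57 in Sp3 knockdown and the NMDA receptor median at -0.011.

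Over the 3 groups, genes were ranked by the distance between their pair of centred log2 fold changes and that of a subunit, among 12938 other genes of at least 1 FPKM in control. Grin2c had 4 genes within a distance of 0.1, and the nearest named genes were Abca1 (distance 0.064) and Cnn3 (0.066). That radius is below the errors of Grin2c, 0.32 in HDAC2 and 0.35 in Sp3 knockdown, so the count cannot show that its pattern is rare. Grin2d had 16 genes within 0.1, led by the calcium channel subunit gene Cacnb3 (0.019) and the small nucleolar RNA gene Snora17 (0.035). Grin3a had 63, led by Slc1a6 (0.027) and Zfp418 (0.029). More genes lay within 0.1 of Grin1 (159 genes, nearest Abcc5 and Slc39a7), Grin2b (169 genes, nearest Phospho2 and Fam32a) and Grin2a (89 genes, nearest Mitd1 and Rpa2). With 3 values per gene and a shared control, likeness of this kind is a description only.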

How the data were processed

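RNA sequencing libraries of 3 groups were read from the authors' deposited tables, 1 for each knockdown against control. TopHat, Bowtie, Cuffdiff and build mm9 are named by the submitters' processing notes, without versions, and nothing is said there of annotation, strand or filters. Per the file headers, the authors gave 1 FPKM value per group, a log2 fold change, a score from their test (the statistic), a p-value and a q-value. That deposited statistic is negative where the fold change is positive, and its normal p lay within 2.79e-06 of the deposited p-value. Control FPKM was identical in both tables for 100% of genes.

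Called genes have status OK and q under 0.05. The implied standard error is the log2 fold change divided by the sign-reversed statistic, with errors over 5 set to missing, and intervals are normal at 95%. Such errors cover what the authors' test covers, and pairs of genes were treated as independent. Centred values subtract the median log2 fold change over tested genes of at least 1 FPKM, with a normal p and Benjamini-Hochberg adjustment over 13481 (HDAC2) and 13539 (Sp3) genes. Shares and ratios use FPKM within a group, and errors of shares follow from the delta method. Computation used Python 3.11.15, pandas 2.3.3 and scipy 1.17.1, and the tests were tried on simulated data.

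All 7 members are named. For each list around the receptor, up to 3 genes per direction with the smallest deposited p were eligible, part of which is given, and likeness names the 2 nearest genes, skipping clone names. The members and lists were chosen with earlier results of these data known. A few list genes are not analysed here.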

Additional observations from a re-analysis of the deposited data

How the results depend on the processing

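Of 26 recomputed counts and ratios that answer a comparison, 25 kept within 1.5 times of the main count or within the error of the main ratio. The exception was the count of subunits differing between the knockdowns, which was 2 and became 1 at an adjusted p under 0.01. The rule for counts ignores direction and lets a count of 2 become 3, so it is a weak check. The centred Sp3 count went from 1 higher and 1 lower to 0 higher and 3 lower relative to the pan-neuronal markers, and passed. All genes lie lower on that scale, and the share of them called on it was not computed. That count is therefore no result about the family. The ratios were varied only by a small pseudocount, which hardly moves genes of that level, so they could scarcely fail. Of 42 recomputed tests of single members and of their differences, 31 kept direction and call, 5 became called, 4 lost the call and 2 changed sign without being called. Values under another pseudocount and the Grin1 share have no test. Grin2b in Sp3 knockdown changed sign on centring (from -0.088 to 0.045), and Grin2d there changed sign relative to the pan-neuronal markers (from 0.15 to -0.28), a scale added after seeing the data; neither was called. With a pseudocount of 1 FPKM the low genes shrank, Grin2c to 0.77 and Grin2d to 1.12 in HDAC2 knockdown, and Grin2c to -0.52 in Sp3 knockdown. Without centring, 2 subunits differed between the knockdowns with HDAC2 higher, Grin2c and Grin2d, in place of Grin2c and Grin1. No paired analysis was possible because the deposited tables hold 1 value per group, and leaving out a replicate was not run for the same reason. Depth per library is unknown, which limits Grin2c, Grin2d and Grin3b most.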

Other observations

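The summed FPKM of the 7 NMDA receptor genes was 299 in control, 266 in HDAC2 knockdown and 270 in Sp3 knockdown, while that of the AMPA receptor genes Gria1 to Gria4 was 482, 565 and 557. The NMDA sum was thus 0.620 times the AMPA sum in control, 0.470 times in HDAC2 knockdown and 0.485 times in Sp3 knockdown. These ratios are free of scaling between groups, share the control and have no spread per group, so no test was made. Set against the summed FPKM of 9 pan-neuronal markers, the NMDA sum was 30.9% in control, 27.5% in HDAC2 knockdown and 20.8% in Sp3 knockdown. The marker sum itself was 968, 967 and 1298 FPKM in the same order, so the Sp3 value also moves with the markers. These percentages have no spread per group either, and no test was made.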
